A study of Arabidopsis thaliana with 4 samples.

Results

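The genes described here are 48 Arabidopsis thaliana genes that copy DNA, drive cells through the division cycle or build the new wall between daughter cells. They were chosen by locus identifier: the MCM2 to MCM7 helicase subunits, the origin recognition complex, other replication factors and polymerases, A-, B- and D3-type cyclins, cyclin-dependent kinases (CDKs), E2F factors with their regulator RBR1, the kinases WEE1 and AURORA, and the cytokinesis genes KNOLLE and HINKEL. All 48 were found among the 33187 identifiers of the table. RNA had been sequenced from whole developing seeds collected 7 days post anthesis, with embryos at torpedo to linear stage, in 2 libraries of the wild type and 2 of the mutant. The erf4 plants carry the insertion SALK_073394 in ERF4, a gene for a repressor of the ethylene response factor family, and are titled erf4_2. They represent a single insertion line, no accession is named for the wild type, and no label says that libraries came from separate plants.

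A plant cell that is to divide first loads the MCM helicase onto replication origins with the origin recognition complex, CDC6 and CDT1. D-type cyclins with CDKA;1 phosphorylate the retinoblastoma-related protein RBR1, which releases E2F factors to switch on genes of DNA synthesis. A- and B-type cyclins with CDKs then carry the cell through G2 and mitosis, where MYB3R factors act on genes with a mitosis-specific activator (MSA) element. Cytokinesis ends the cycle with a cell plate, to which vesicles are delivered along the phragmoplast. In a seed of this age the embryo is still growing while it begins to fill with reserves, and most division in the endosperm and seed coat is over. A whole-seed library mixes these tissues, so fewer dividing cells and less RNA per cell cannot be told apart.

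The regulatory sequence near the start of these genes held the letters of the E2F and MSA elements unevenly among roles. The window ran from 250 bases before to 50 bases after the annotated gene start, in the RefSeq annotation of TAIR10.1. The expression table names no build, but all 32548 of its nuclear locus identifiers are loci of that annotation. An E2F motif was counted as TTTCCCGC, TTTGGCGC, TTTGCCGC or TTTCGCGC, and the MSA core as AACGG, each on either strand, where a match on the opposite strand is printed as its reverse complement. None of these motifs contains another, and a match describes letters, not a bound site. An E2F motif lay in 12 of 48 windows (25.0%), against 1.76% of 27443 windows of protein-coding genes, and an MSA core in 25 of 48 (52.1%), against 24.7%. Among the 6 MCM genes 5 had an E2F motif, and all 6 B-type cyclin genes of the set had at least 2 MSA cores, which 4.89% of all windows had. The stretches below show the E2F motif in capitals in MCM genes, whose values follow, so that its place can be compared between subunits of a single complex. They end at the base before the gene start, except that of MCM3, whose motif lies farther away.
MCM2: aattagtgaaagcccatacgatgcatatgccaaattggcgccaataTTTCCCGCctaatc
MCM3: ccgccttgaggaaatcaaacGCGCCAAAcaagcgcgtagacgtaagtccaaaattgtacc
MCM4: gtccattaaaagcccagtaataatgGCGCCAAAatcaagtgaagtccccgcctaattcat
MCM5: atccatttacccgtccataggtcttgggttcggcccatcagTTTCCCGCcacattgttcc
MCM6: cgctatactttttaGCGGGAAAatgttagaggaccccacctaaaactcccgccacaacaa

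These 60-base stretches lie at chr1:16970154-16970213 on the plus strand (MCM2) and, on the minus strand, at chr5:18773837-18773896 (MCM3), chr2:7130730-7130789 (MCM4), chr2:3527501-3527560 (MCM5) and chr5:18010668-18010727 (MCM6) of TAIR10.1. None overlaps another annotated gene. The motif began 14 bases before the gene start in MCM2, 19 in MCM5, 35 in MCM4, 46 in MCM6 and 170 in MCM3. MCM7 held no E2F motif in its window.

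The next stretches show the MSA core in capitals in 3 B-type cyclin genes and in KNOLLE, shown because these cyclin genes carry several cores close to the gene start and KNOLLE is the most abundant of the 48 genes. All end at the base before the gene start and lie on the minus strand, at chr4:17624309-17624388 (CYCB1;1), chr5:1861704-1861853 (CYCB1;2), chr3:3627274-3627353 (CYCB1;3) and chr1:2711001-2711040 (KNOLLE). CYCB1;2 had 4 cores in 150 bases, in alternating orientation. KNOLLE had 3 in its window, 2 of them after the gene start and not shown.
CYCB1;1: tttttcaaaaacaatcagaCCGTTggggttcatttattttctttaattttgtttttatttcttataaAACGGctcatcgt
CYCB1;2: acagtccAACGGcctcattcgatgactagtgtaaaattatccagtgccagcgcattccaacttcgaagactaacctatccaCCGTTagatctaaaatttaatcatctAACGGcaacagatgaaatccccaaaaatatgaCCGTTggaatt
CYCB1;3: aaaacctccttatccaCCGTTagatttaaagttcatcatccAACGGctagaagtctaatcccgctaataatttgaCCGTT
KNOLLE: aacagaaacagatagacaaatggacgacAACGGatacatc

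**Figure D1:**
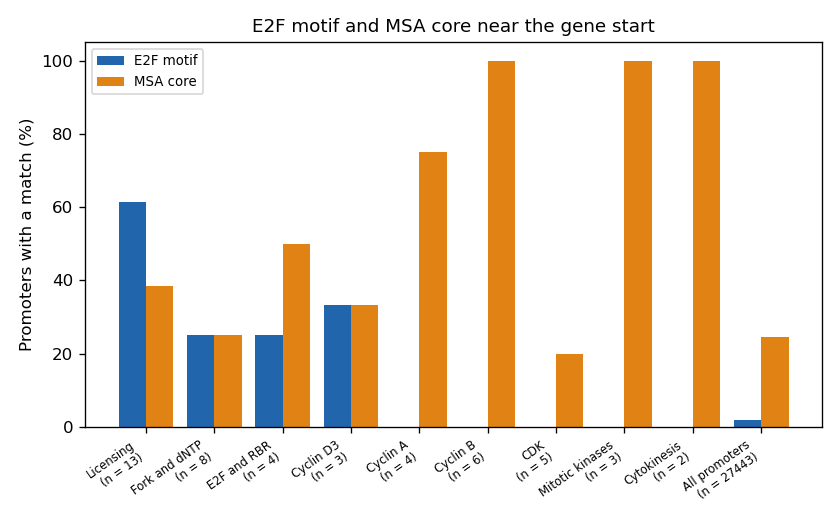
Share of promoter windows with at least 1 E2F motif or MSA core (vertical axis, percent) for each role of the 48 genes and for all protein-coding genes (horizontal axis, number of windows in brackets). The E2F bar is highest for licensing genes, at 61.5%, and the MSA bar reaches 100% for B-type cyclins, mitotic kinases and cytokinesis genes.

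Values are TPM as the authors deposited them, a share of the transcripts of a library corrected for gene length, which keeps no record of read depth. ERF4 itself had similar values in both genotypes, 38.0 and 33.0 TPM in wild-type seeds and 34.6 and 41.3 TPM in the mutant, a log2 fold change of 0.09 (SE 0.17). The level of ERF4 therefore does not check the genotype labels. Storage protein transcripts set erf4 replicate 2 apart: the 7 listed genes for cruciferins and 2S albumins summed to 841 TPM there, against 33034 TPM in erf4 replicate 1 and 15346 to 29350 TPM in the wild type. The counts and medians over all cell cycle genes are therefore also given without that library.

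Cell cycle genes had slightly higher values in seeds labelled erf4, with medians by role that ran from -0.11 for D3-type cyclins to 0.49 for the MCM and the cytokinesis genes on the log2 scale. Of the 47 genes with at least 1 TPM in 2 or more libraries, 41 had a positive log2 fold change (87.2%), against 55.9% of the 20804 genes tested. In 34 of 47 (72.3%), both erf4 libraries lay above both wild-type libraries, as they did in 21.5% of all tested genes. The opposite order held for 2 of 47, against 12.2% of all tested genes. The median log2 fold change, on log2(TPM + 1), was 0.28 for these genes and 0.03 for all tested genes. Every tested cell cycle gene had at least 1.36 TPM in each library, so none entered through erf4 alone. ORC1A, at 0.37 to 0.70 TPM, was the gene left out.

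No single gene was called in the fit with genotype as the only term. With limma, 0.00% of all tested genes and 0 of the 47 had a Benjamini-Hochberg adjusted p under 0.05, and the smallest adjusted p of a cell cycle gene was 0.525, for PCNA1. At an unadjusted limma p under 0.05 there were 12 of 47 (25.5%), all higher in erf4, against 4.23% of all tested genes that were higher at that threshold and 6.98% in either direction. The 2 libraries per genotype allow no exact permutation p below 0.3333 for a single gene. Without erf4 replicate 2 the median of the cell cycle genes was 0.23 and that of all tested genes -0.07, and 34 of 47 genes lay above the wild type, against 29.0% of all tested genes. Without erf4 replicate 1 these medians were 0.32 and 0.14, and 44 of 47 genes lay above the wild type, against 55.2% of all tested genes. Positive log2 fold changes numbered 38 of 47 without erf4 replicate 2 and 45 of 47 without erf4 replicate 1. Below the wild type lay 7 of 47 and 2 of 47. No share of all tested genes was computed for these counts, so they describe the 47 genes only and cannot be set against all tested genes.

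**Figure D2:**
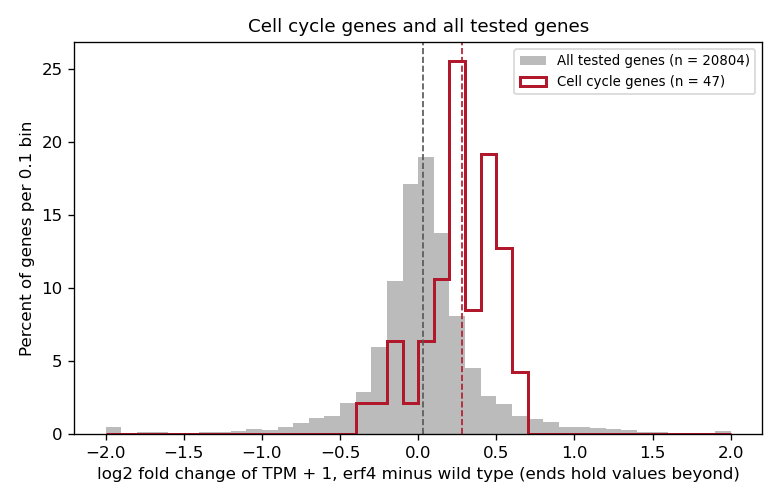
Distribution of the log2 fold change of TPM + 1, erf4 minus wild type (horizontal axis), as percent of genes per bin (vertical axis), for all 20804 tested genes in grey and the 47 tested cell cycle genes in red, with dashed lines at the medians of 0.03 and 0.28. The red outline lies mostly to the right of zero and within the body of the grey distribution.

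**Figure D3:**
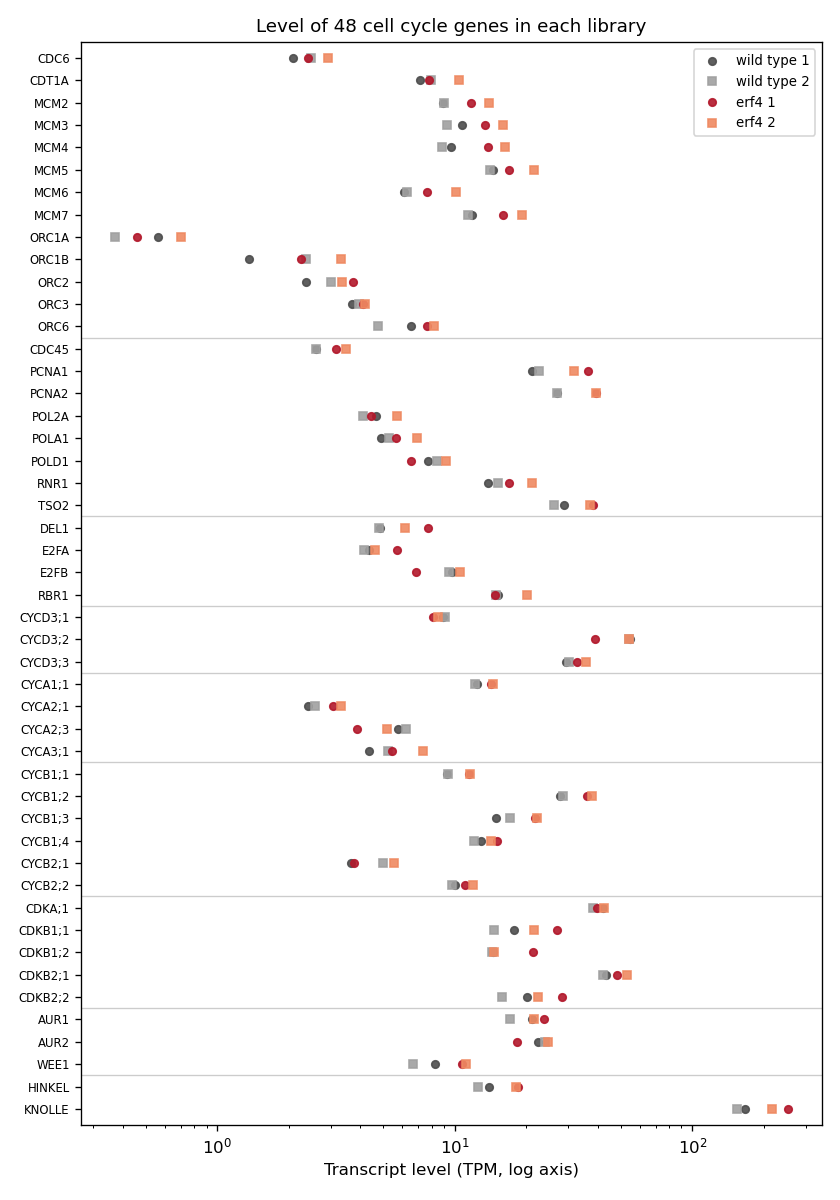
Level of each of the 48 genes in TPM (horizontal axis, log scale) in the 2 wild-type libraries (grey) and the 2 erf4 libraries (red and orange), with genes ordered by role. KNOLLE stands highest and ORC1A lowest, and in most rows the coloured points lie to the right of the grey ones.

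The MCM helicase, which unwinds DNA at the fork once it has been loaded, had higher values in erf4 for every subunit. All 6 subunit genes had both erf4 libraries above both wild-type libraries, as did 21.5% of all tested genes. Their log2 fold changes ran from 0.40 to 0.64, with a median of 0.49. MCM4 (AT2G16440) had 9.67 and 8.80 TPM in wild-type seeds against 13.7 and 16.3 TPM in erf4, a 1.62-fold difference (log2 fold change 0.64, SE 0.19, limma adjusted p = 0.555). MCM7 (AT4G02060), also known as PROLIFERA, had 11.8 and 11.3 TPM against 16.0 and 19.2 TPM (1.52-fold). MCM3 (AT5G46280) had 10.7 and 9.23 TPM against 13.4 and 16.0 TPM (1.47-fold). MCM2 (AT1G44900) had 8.89 and 8.99 TPM against 11.7 and 14.0 TPM (1.44-fold). In each of these genes erf4 replicate 2 was the highest library. MCM5 (AT2G07690) and MCM6 (AT5G44635) had 1.35- and 1.43-fold differences. MCM5 was the most abundant subunit and MCM6 the least in each of the 4 libraries, and the ratio between them ran from 2.12 to 2.35.

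The loaders of the helicase showed smaller differences. Of the 6 tested, all had a positive log2 fold change, with a median of 0.26, and 3 lay above the wild-type range. ORC6 (AT1G26840), a subunit of the origin recognition complex, stood at 0.43 (SE 0.23) and its largest subunit gene ORC1B (AT4G12620) at 0.41 (SE 0.31). ORC3 (AT5G16690) was lowest, with 3.70 and 3.96 TPM against 4.10 and 4.2 TPM (log2 fold change 0.09, SE 0.21). ORC2 (AT2G37560) and the licensing factors CDT1A (AT2G31270) and CDC6 (AT2G29680) stood at 0.30, 0.23 and 0.16. The wild-type and erf4 libraries overlapped for ORC1B, CDT1A and CDC6. Levels were low, from 1.36 TPM for ORC1B to 10.4 TPM for CDT1A.

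At the replication fork, the clamp genes had the smallest limma p of the 47. PCNA1 (AT1G07370) and PCNA2 (AT2G29570) encode the sliding clamp that holds polymerases on DNA. PCNA1 had 21.2 and 22.5 TPM in wild-type seeds against 36.4 and 31.8 TPM in erf4, a 1.56-fold difference (log2 fold change 0.62, SE 0.16). PCNA2 had 27.0 TPM in each wild-type library and 39.3 and 39.2 TPM in erf4, a 1.45-fold difference (log2 fold change 0.52, SE 0.14, limma adjusted p = 0.548). For PCNA2 the replicates of a genotype all but coincided. Since the genes are closely related and could share reads, their sum is also given: 48.2 and 49.5 TPM against 75.6 and 71.0 TPM, 1.501-fold.

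Ribonucleotide reductase makes the deoxynucleotides. TSO2 (AT3G27060), for its small subunit, had 28.8 and 26.2 TPM against 38.2 and 37.2 TPM (1.37-fold). RNR1 (AT2G21790), for the large subunit, had 13.8 and 15.2 TPM against 16.9 and 21.2 TPM (1.31-fold). Both lay above the wild-type range in erf4. RNR2A (AT3G23580), a small-subunit gene outside the 48, had 21.7 and 21.3 TPM against 18.0 and 20.06 TPM, below that range (log2 fold change -0.17, SE 0.16). The catalytic polymerase genes stood closer to zero: POLA1 (AT5G67100, polymerase alpha) at 0.26, POL2A (AT1G08260, polymerase epsilon) at 0.17 and POLD1 (AT5G63960, polymerase delta) at -0.05. POLD1 had 7.74 and 8.39 TPM against 6.52 and 9.17 TPM, with the erf4 libraries on either side of the wild type. CDC45 (AT3G25100), which activates the MCM helicase, stood at 0.27 with 2.59 and 2.60 TPM against 3.17 and 3.49 TPM.

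Genes at the gate into S phase had mixed values. RBR1 (AT3G12280), the retinoblastoma-related repressor, had 15.2 and 14.8 TPM against 14.7 and 20.17 TPM, so that only erf4 replicate 2 was higher. E2FB (AT5G22220), an activating E2F, had 9.73 and 9.42 TPM against 6.85 and 10.6 TPM, on either side of the wild type (log2 fold change -0.15, SE 0.25). E2FA (AT2G36010), the other activating E2F, had 4.35 and 4.14 TPM against 5.71 and 4.60 TPM. DEL1 (AT3G48160), an atypical E2F known to restrain endoreduplication, had 4.82 and 4.79 TPM against 7.70 and 6.16 TPM, 1.44-fold (log2 fold change 0.44, SE 0.21). E2FA and DEL1 lay above the wild-type range, and erf4 replicate 1 was the higher erf4 library for both.

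The D3-type cyclins, which answer to hormones and sustain division in place of differentiation, went in different directions. CYCD3;1 (AT4G34160) had 8.90 and 9.09 TPM against 8.09 and 8.49 TPM, below the wild-type range in both erf4 libraries. CYCD3;2 (AT5G67260) was among the most abundant of the 48 genes, with 54.4 and 54.0 TPM against 38.9 and 54.3 TPM, so that only erf4 replicate 1 was low (log2 fold change -0.23, SE 0.20). CYCD3;3 (AT3G50070) had 29.3 and 30.1 TPM against 32.7 and 35.8 TPM, above the wild-type range (log2 fold change 0.19, SE 0.14). The median of the 3 genes was -0.11.

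A-type cyclins act from S phase to mitosis. The gene for CYCA3;1 (AT5G43080), of the S-phase class, had 4.33 and 5.24 TPM against 5.45 and 7.31 TPM. CYCA2;1 (AT5G25380) had 2.41 and 2.57 TPM against 3.08 and 3.32 TPM, and CYCA1;1 (AT1G44110) 12.5 and 12.2 TPM against 14.2 and 14.4 TPM. All 3 lay above the wild-type range. CYCA2;3 (AT1G15570), known to delay the switch to endoreduplication, had the lowest log2 fold change of the 47 genes, -0.35 (SE 0.23), with 5.77 and 6.24 TPM against 3.88 and 5.2 TPM.

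B-type cyclins, which accompany mitosis and are destroyed at its end, had positive log2 fold changes for all 6 genes of the set. CYCB1;3 (AT3G11520) had 15.0 and 17.1 TPM against 21.8 and 22.2 TPM (1.37-fold, log2 fold change 0.44, SE 0.16). CYCB1;2 (AT5G06150), the most abundant, had 27.8 and 28.6 TPM against 35.9 and 37.7 TPM (1.30-fold). CYCB1;1 (AT4G37490), used widely as a marker of cells in G2 and mitosis, had 9.26 and 9.35 TPM against 11.5 TPM in each erf4 library (1.24-fold). AT2G26760, also of the B1 subclass, had 12.8 and 12.1 TPM against 15.1 and 14.2 TPM (1.18-fold). These 4 genes lay above the wild-type range, and their median absolute difference between erf4 replicates was 0.05 on the log2 scale, against 0.27 over all tested genes. A further B1 gene outside the 48, CYCB1;5 (AT1G34460), had 6.39 and 7.24 TPM against 3.84 and 6.56 TPM (log2 fold change -0.37, SE 0.28), with overlapping groups. In the B2 subclass, AT4G35620 stood at 0.20 and AT2G17620 at 0.08, and the latter had 3.64 and 5.0 TPM against 3.76 and 5.55 TPM with overlapping groups.

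Among the CDKs, the mitotic B class had higher values in erf4 and the A class similar values in both genotypes. CDKA;1 (AT3G48750), the kinase present throughout the cycle, had 42.2 and 38.3 TPM against 39.7 and 42.3 TPM (log2 fold change 0.03, SE 0.14, 95% confidence interval -0.34 to 0.39), a sign that turned under both other scalings of the libraries. All 4 CDKB genes, which are specific to plants and active around mitosis, lay above the wild-type range, with a median log2 fold change of 0.38. CDKB1;1 (AT3G54180) had 17.8 and 14.7 TPM against 26.9 and 21.6 TPM (1.495-fold, log2 fold change 0.55, SE 0.20). Its paralogue AT2G38620 had 14.4 TPM in each wild-type library against 21.4 and 14.6 TPM, so that erf4 replicate 2 was barely higher. CDKB2;2 (AT1G20930) had 20.08 and 15.8 TPM against 28.3 and 22.4 TPM, and AT1G76540, for the other B2 kinase, 43.2 and 42.0 TPM against 47.98 and 53.2 TPM. Summed within pairs that could share reads, the B1 genes were 1.38-fold and the B2 genes 1.25-fold higher in erf4, and neither sum overlapped between genotypes.

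Of the kinases around mitosis, WEE1 (AT1G02970), which holds CDKs back when replication is disturbed, had 8.21 and 6.69 TPM against 10.7 and 11.1 TPM (1.47-fold, log2 fold change 0.50, SE 0.20). AUR1 (AT4G32830), an AURORA kinase of the spindle and cell plate, had 21.1 and 17.1 TPM against 23.8 and 21.4 TPM. Its close relative AUR2 (AT2G25880) had 22.5 and 24.1 TPM against 18.3 and 24.7 TPM. WEE1 and AUR1 lay above the wild-type range and AUR2 overlapped, as did the sum of both AURORA genes, which was 1.04-fold higher in erf4.

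Cytokinesis was represented by a very abundant and a moderate transcript. KNOLLE (AT1G08560), the syntaxin that fuses vesicles at the cell plate, had 166 and 155 TPM in wild-type seeds against 254 and 217 TPM in erf4 (1.47-fold, log2 fold change 0.55, SE 0.15, limma adjusted p = 0.548). It stood at percentile 96.2 of all tested genes by mean TPM and held 20.11% to 25.7% of the summed TPM of the 48 genes in a library. HINKEL (AT1G18370), a kinesin that lets the phragmoplast expand, had 13.9 and 12.5 TPM against 18.4 and 18.1 TPM (1.38-fold, log2 fold change 0.44, SE 0.16). Neither overlapped between genotypes. Without KNOLLE the remaining 47 genes summed to 629 and 615 TPM in wild-type seeds against 734 and 787 TPM in erf4.

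**Figure D4:**
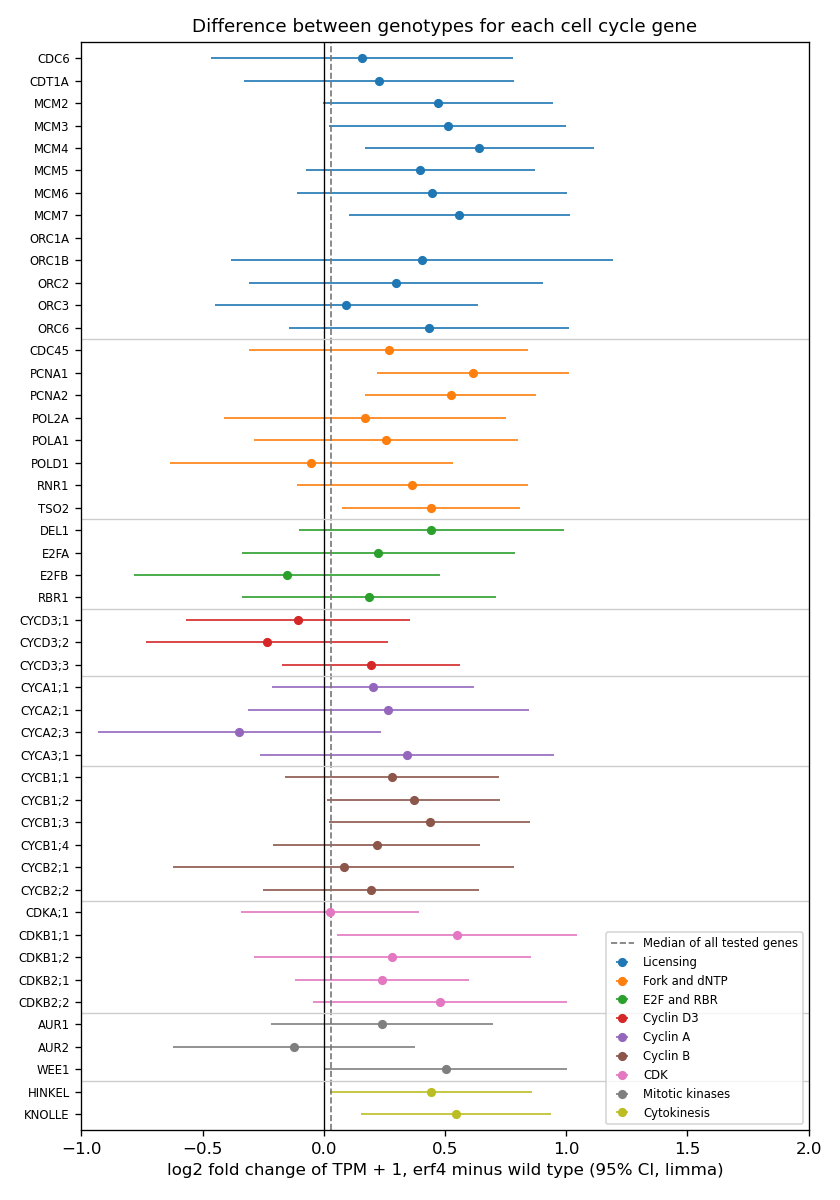
log2 fold change of TPM + 1, erf4 minus wild type (horizontal axis), with its 95% confidence interval from limma for each tested gene, ordered and coloured by role; the dashed line is the median of all tested genes, 0.03, and ORC1A has no point because it was not tested. Points of MCM, PCNA, CYCB1 and CDKB genes lie to the right of the line, while those of D3-type cyclins and CDKA;1 lie around it.

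Because TPM are shares, a large transcript class that shrinks in a library lifts all others. Under median-of-ratios scaling of the libraries the median log2 fold change of the cell cycle genes was 0.25 and 33 of 47 lay above the wild-type range, against 18.1% of all tested genes.

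The cell cycle genes differed between the erf4 libraries in both directions. On the log2 scale, erf4 replicate 2 minus erf4 replicate 1 had a median of 0.18 over all tested genes, of which 70.5% were higher in replicate 2, as were 34 of the 47 cell cycle genes. All 6 MCM genes were higher in replicate 2, by 0.23 to 0.37, which is above that shift for each. KNOLLE, PCNA1, CDKB1;1, its paralogue AT2G38620 and CDKB2;2 were lower in replicate 2, with differences of -0.23, -0.19, -0.31, -0.52 and -0.33, while AT1G76540, the remaining CDKB gene, stood at 0.15. E2FB and CYCD3;2 had differences of 0.56 and 0.47, which are larger than their differences between genotypes. In absolute size the same held for AT2G38620, AT2G17620, POLD1, RBR1, AUR2, CDT1A, POL2A and E2FA, among others. The wild-type libraries agreed more closely: the median absolute difference was 0.09 for the cell cycle genes and 0.18 for all tested genes, while between the erf4 libraries it was 0.23 and 0.27.

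**Figure D5:**
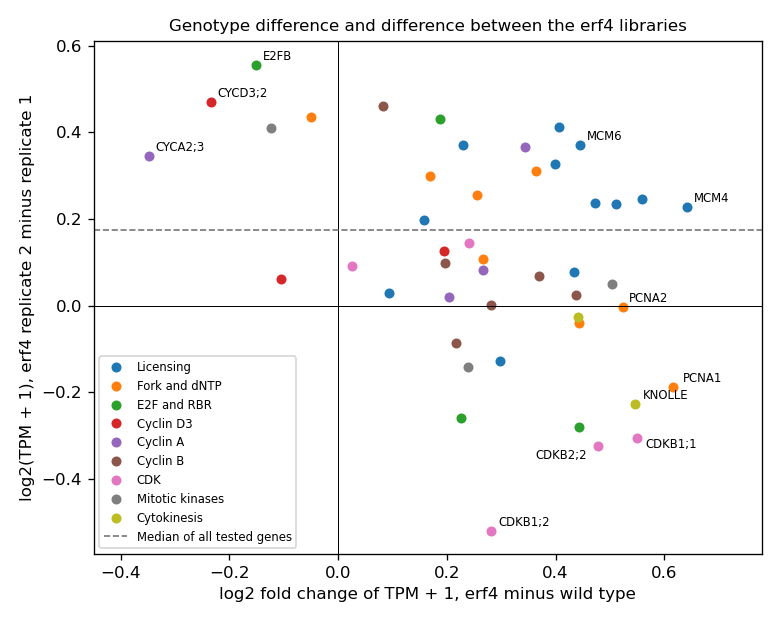
log2 fold change of TPM + 1, erf4 minus wild type (horizontal axis), against the difference between the erf4 libraries, replicate 2 minus replicate 1 on log2(TPM + 1) (vertical axis), for the 47 tested genes coloured by role; the dashed line is the median replicate difference of all tested genes, 0.18. MCM genes lie above zero on both axes, and KNOLLE and 3 CDKB genes lie below zero on the vertical axis.

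Genes with either promoter motif had similar differences. The 7 tested genes with an E2F motif but no MSA core had a median log2 fold change of 0.40, and all 7 lay above the wild-type range. Most of them are the MCM genes described above, MCM2 to MCM5, at 0.40 to 0.64. The others, RNR1, CYCD3;3 and ORC3, stood at 0.36, 0.19 and 0.09. The 21 genes with an MSA core alone had a median of 0.27, and 17 lay above that range. The 15 genes with neither had a median of 0.24, and 7 lay above the range, PCNA1 and PCNA2 among them. The 4 with both had a median of 0.28, and 3 lay above the range. Of all tested genes 21.5% lay above it, and of all 47 cell cycle genes 34 did. The groups overlapped widely, since the genes with neither ran from -0.35 to 0.62. They were not tested against each other. All 7 genes with the E2F motif alone and 15 of the 21 with the MSA core alone had higher values in erf4 replicate 2 than in replicate 1, against the 70.5% of all tested genes given above.

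Other genes of the same pathways, taken from lists made for this description, had mostly positive log2 fold changes for replication and mitosis. The CDK inhibitors had values in both directions. No gene on these lists was called by limma. With histones left out and each gene counted once, 4 of 101 tested genes had an unadjusted limma p under 0.05, all higher in erf4. None of them was among the other replication genes, and 4.23% of all tested genes were higher at that threshold. The counts read against the 55.9% of all tested genes that were positive, the 21.5% above the wild-type range and the 12.2% below it. Of 26 other replication genes, 21 were positive, 14 had both erf4 libraries above the wild type and 1 had both below, with a median of 0.25. The primase gene POLA3 (AT5G41880) had 6.82 and 6.51 TPM against 8.92 and 11 TPM, while RPA2A (AT2G24490), for a single-strand binding protein, stood at 0.43 and the topoisomerase gene TOP2 (AT3G23890) at 0.48. Of 15 other genes of mitosis and cytokinesis, 14 were positive and 8 lay above the range, with a median of 0.15. The spindle checkpoint gene MAD2 (AT3G25980) had 77.1 and 77.0 TPM against 99.7 and 99.1 TPM (log2 fold change 0.36, SE 0.13), and AUR3 (AT2G45490) and the cytokinesis gene RUK (AT5G18700) stood at 0.39 and 0.40.

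Of 21 tested further cyclins and CDK partners, 17 were positive and 9 lay above the range, with a median of 0.10. CYCD6;1 (AT4G03270), known from asymmetric root divisions, had 6.73 and 4.43 TPM against 12.9 and 7.65 TPM. The next by p were AT1G47210, an A3-type cyclin, and AT1G73690, a CDK-activating kinase gene, at 0.34 each. Among the other E2F, DP and MYB3R factors 7 of 9 were positive, with a median of 0.18. The atypical E2F gene DEL2 (AT5G14960) had 3.63 and 3.03 TPM against 8.80 and 5.49 TPM (log2 fold change 0.88, SE 0.28), MYB3R4 (AT5G11510) stood at 0.38 and the E2F partner gene DPA (AT5G02470) at 0.24.

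CDK inhibitors went both ways, with 5 of 12 positive, 4 above and 5 below the wild-type range and a median of -0.15. SMR4 (AT5G02220) had 7.59 and 6.03 TPM against 17.1 and 11.9 TPM (log2 fold change 0.97, SE 0.25, limma adjusted p = 0.525). SMR7 (AT3G27630), which also answers to DNA damage, had 3.89 and 6.01 TPM against 2.14 and 2.97 TPM, and KRP2 (AT3G50630) stood at -0.30. Of the KRP inhibitors, 6 of 7 were negative, and KRP1, KRP2, KRP4 and KRP5 lay below the wild-type range. KRP1 (AT2G23430) had 34.7 and 42.0 TPM against 26.4 and 34.4 TPM (log2 fold change -0.33, SE 0.20). In the SIAMESE family, SIM, SMR1, SMR2 and SMR4 were positive and SMR7 negative. The anaphase-promoting complex, which marks mitotic cyclins for destruction, had 6 of 11 genes positive and a median of 0.04, near the share and median of all tested genes. Its subunit gene APC6 (AT1G78770) stood at 0.55, the activator gene CCS52B (AT5G13840) at -0.33 and APC10 (AT2G18290) at -0.26. DNA damage response genes had 4 of 8 positive and a median of 0.01, also near those of all tested genes, with XRI1 (AT5G48720) at 0.21. Of 11 tested genes whose RefSeq product names a core histone, 8 were positive and 6 lay above the range. Most of these genes are for H2A and none is for H2B. Histone genes whose product name gives no class are not on this list. HTA13 (AT3G20670), HTA6 (AT5G59870) and HTA11 (AT3G54560), all for H2A proteins, stood at 0.42, 0.45 and 0.46.

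Markers of seed tissues and stage also separated the genotypes in part, and their part in the values above was not tested. No marker was called by limma, and the shares of all tested genes above and below the wild-type range, 21.5% and 12.2%, apply here too. Of 7 tested embryo markers, 4 lay below and 2 above the wild-type range, and the whole list summed to 478 and 528 TPM in wild-type seeds against 336 and 434 TPM. LEC1 (AT1G21970), an early embryo regulator, had 74.0 and 78.2 TPM against 118 and 110 TPM, while the maturation regulators FUS3 (AT3G26790) and ABI3 (AT3G24650) stood at -0.89 and -0.53. Of 7 tested endosperm markers, 5 lay above the wild-type range and EPR1 (AT2G27380) below it. The list summed to 1656 and 1310 TPM in wild-type seeds against 929 and 800 TPM, mostly EPR1, and AGL62, IKU2 and MINI3 of early endosperm had under 1 TPM in each library. Seed coat markers summed to 1210 to 1215 TPM against 1304 to 1443 TPM, with 4 of 8 above the range and 1 below it. BAN (AT1G61720) had 299 and 223 TPM against 476 and 398 TPM. TT10 (AT5G48100), the marker below the range, had 541 and 573 TPM against 454 and 511 TPM. Silique wall and leaf markers summed to 902 to 1300 TPM against 1525 to 1741 TPM, with 6 of 7 above it. For storage proteins, erf4 replicate 1 had the highest sum of the 4 libraries.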

How the data were processed

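RNA from seeds was profiled in 4 libraries, grouped and numbered by their titles. The authors deposited gene-level TPM, rounded to 2 decimals and summing to 1000000 per library; fastp, HISAT and RSEM are named in the submitters' processing notes, without versions, and the build is not given in the sources used here. Depth is therefore unknown and no counting interval is given. The deposited genotype means were not used.

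From these values, log2(TPM + 1) of the 20804 genes with at least 1 TPM in at least 2 libraries was fitted with limma 3.58.1 (R 4.3.3), with genotype as the only term, a variance trend and two-sided tests. Adjusted p-values are Benjamini-Hochberg values over all these genes; the threshold was 0.05. SE and 95% confidence intervals are limma's and unadjusted. The p-values measure only how far these libraries vary, and part of that may be technical. Fold changes on this scale understate the difference of weakly expressed genes. Fold values without log2 are quotients of mean TPM. The fit was checked on simulated data with known changes, all larger than those of the cell cycle genes. That check does not show whether differences of their size would be called.

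The 48 genes, their roles and the further gene lists were chosen with earlier results of these data known, so counts and medians over them are descriptions. Values per library are given for up to 4 genes of each role with the smallest limma p and for those with the lowest and highest log2 fold change, and up to 3 genes are named per further list, of which 1 is not reported here; MCM5, MCM6, CDC45, ORC6, CYCB1;5, RNR2A and the KRP and SIAMESE family genes other than SMR4, SMR7 and KRP2 were added after their values were seen. The range of a group means its lowest to highest library. Gene names and sequences came from the RefSeq annotation of TAIR10.1, which held all 48 loci. A planned comparison of protein sequences was not made. Closely related genes (PCNA, CDKB, AURORA, ORC1) could share reads, so each of their own values is uncertain. Alternatives covered the pseudocount, the filter, the scaling, the variance trend, the replicate number as a term, and leaving out each library.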

Additional observations from a re-analysis of the deposited data

How the results depend on the processing

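No cell cycle gene was called under any alternative without the replicate number as a term, and over all genes none was called under the other settings except when a wild-type library was left out, which gave from 0 to 204 genes across the 4 omissions, 204 without replicate 1 and 49 without replicate 2 of the wild type. The median log2 fold change of the cell cycle genes was 0.35 with a pseudocount of 0.1, 0.20 with a pseudocount of 5 and 0.35 for the 38 genes with a mean TPM of at least 5. Leaving out a library gave 0.23 to 0.32, with 34 to 44 of 47 genes above the wild type, against 29.0% to 55.2% of all tested genes. With the replicate number as a block, 1083 genes (5.21%) were called, KNOLLE among them (limma adjusted p = 0.0247) and no other cell cycle gene. The labels do not say that a number marks a shared batch; deviations of same-numbered libraries correlated with r = 0.35 across 20804 genes, which are not independent. CDKA;1 changed sign under median-of-ratios scaling (-0.0110) and quantile normalization (-0.00237). Leaving out libraries also turned the sign of genes near zero: CDKA;1 ran from -0.0439 to 0.0951, CYCB2;1 from -0.15 to 0.31, POLD1 from -0.27 to 0.17, RBR1 from -0.0290 to 0.402, AUR2 from -0.327 to 0.0820, E2FB from -0.43 to 0.13 and CYCD3;2 from -0.470 to 0.00145. The cause of these shifts was not tested. Unknown depth limits what can be said of ORC1A, ORC1B and CDC6.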
